A study of Mus musculus with 2 samples.

Results

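The cerebral cortex is built in layers, and a small set of transcription factors gives the neurons of each layer their identity. Of these, 9 genes were examined in aged mouse cortex: Cux1, Cux2, Pou3f2, Rorb, Fezf2, Bcl11b, Tbr1, Tle4 and Foxp2. They were found by gene symbol among the 55536 annotated genes of the deposited tables, and each of the 9 symbols matched 1 gene identifier. Total RNA was sequenced in 2 libraries made from left cerebral cortex of male mice of the strain B6CASTF1/J, an F1 cross of B6 with CAST, at an age of 18-20 months. Both carry no treatment in the labels and form 1 group, numbered in the labels as biological replicates 2 and 1. The labels give both libraries the same donor identifier but separate biosample identifiers. They do not say whether separate animals were sampled, so how much of the spread between the libraries is biological is not known.

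In the developing cortex these factors act in a network of mutual repression. Cux1, Cux2 and Pou3f2 mark neurons of the upper layers, which connect cortical areas with each other, and Rorb marks layer 4, which receives thalamic input. Fezf2 and its downstream factor Bcl11b direct layer 5 neurons to project to the brain stem and spinal cord, while Tbr1, Tle4 and Foxp2 are carried by layer 6 neurons, which project to the thalamus. Many of these genes stay on in adult neurons. Bcl11b and Foxp2 are also made by projection neurons of the striatum, which lies under the cortex.

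For 3 of these genes the RNA comes in forms that differ in what they encode, and the sequences at which the forms part are shown here because results below are given per form. The sequences are those of the reference genome and the GENCODE M21 annotation on mm10, the assembly also called GRCm38. The gene Cux1 gives rise to the homeobox transcription factor and to CASP, a membrane protein of the Golgi apparatus that lacks the homeobox. Transcripts of both kinds share the exon at chr5:136314307-136314403 on the minus strand. The homeobox form then joins the exon at chr5:136312643-136313008, and the CASP form the one at chr5:136257913-136258040. The 30 bases before the junction are in lower case and the 30 bases after it are in capitals.
Cux1-201: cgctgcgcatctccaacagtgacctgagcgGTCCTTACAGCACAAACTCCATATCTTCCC
Cux1-211: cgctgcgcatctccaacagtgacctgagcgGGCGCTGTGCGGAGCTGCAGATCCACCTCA

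Rorb has a pair of starts, and each adds its own first coding bases to a shared exon at chr19:18988031-18988116. Rorb-203 starts upstream, in the exon chr19:19110552-19111196, and encodes RORβ1. Rorb-201 starts downstream, in the exon chr19:19001007-19001117, and encodes RORβ2, a form known from the retina and the pineal gland. The first coding bases are shown from the start codon, with the bases proper to each start in capitals: 7 in Rorb-203 and 40 in Rorb-201.
Rorb-203: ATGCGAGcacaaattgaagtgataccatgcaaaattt
Rorb-201: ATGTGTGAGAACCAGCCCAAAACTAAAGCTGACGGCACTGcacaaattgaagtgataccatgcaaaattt

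Bcl11b-201 holds a coding exon of 216 bases, or 72 codons, that Bcl11b-203 skips. The exon is at chr12:107965672-107965887 on the minus strand and is in capitals, with 15 bases of each neighbouring exon in lower case.
Bcl11b-201: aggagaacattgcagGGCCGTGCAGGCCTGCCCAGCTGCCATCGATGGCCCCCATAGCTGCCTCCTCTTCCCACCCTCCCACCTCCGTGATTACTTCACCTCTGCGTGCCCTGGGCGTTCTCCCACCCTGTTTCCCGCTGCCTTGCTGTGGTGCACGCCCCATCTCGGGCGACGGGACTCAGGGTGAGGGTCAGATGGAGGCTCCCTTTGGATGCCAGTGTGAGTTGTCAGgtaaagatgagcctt

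The depth over annotated genes was 29897486 expected counts for replicate 2 and 22827984 for replicate 1. The tissue label was set against markers of cortical excitatory neurons. Slc17a7, the vesicular glutamate transporter of these cells, was at 562 TPM in replicate 2 and 581 TPM in replicate 1. All 9 genes of the excitatory list, which includes Tbr1, were detected. By the same rule 12 of 14 striatal, 7 of 8 thalamic and 6 of 8 hippocampal genes were detected. Detection alone thus does not tell these tissues apart. TPM is a level per transcript length, scaled to 1 total in each library, so it can be set side by side between genes. A gene is called detected at 1 TPM or more in both libraries. Markers of the striatum differed between the libraries, as given beside the results for Bcl11b and Foxp2. In bulk RNA, fewer cells of a type and less RNA per cell cannot be told apart.

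All 9 genes were detected, and together they held 283 TPM in replicate 2 and 311 TPM in replicate 1. Cux2 was the highest and Foxp2 the lowest, a range of 12.6-fold in replicate 2 and 17.4-fold in replicate 1. Among the 12868 nuclear protein-coding genes detected in both libraries, the 9 spread from the lower to the upper end. Cux2 stood at percentile 91.0 in replicate 2 and 92.4 in replicate 1, and Foxp2 at percentile 25.8 in replicate 2 and 20.8 in replicate 1.

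**Figure D1:**
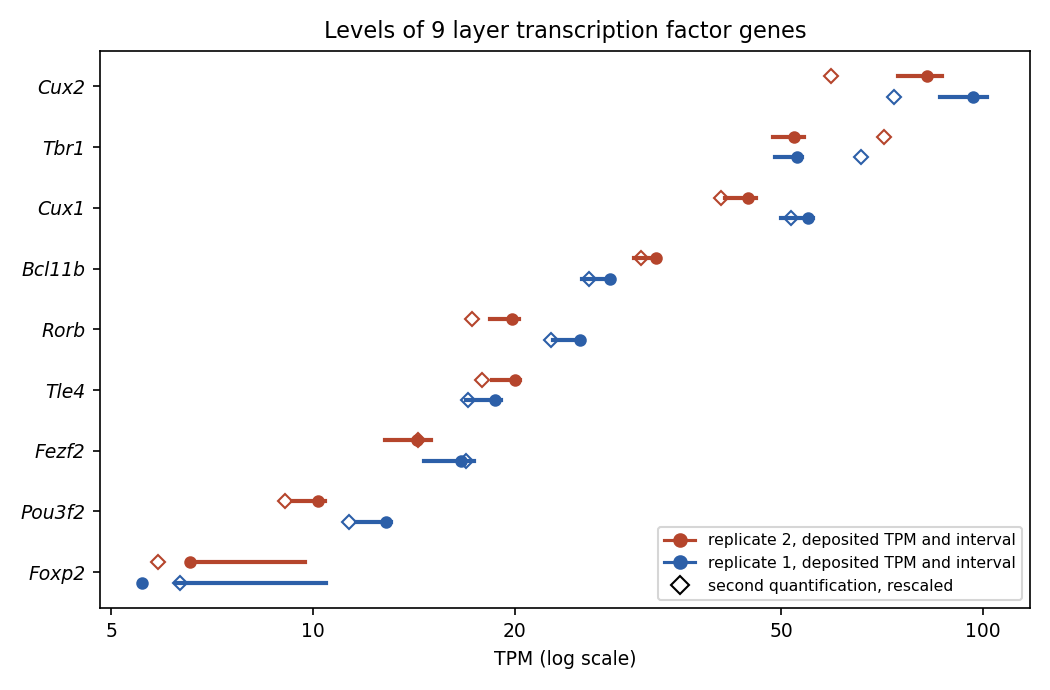
Levels of the 9 genes in TPM on a log scale, with replicate 2 above replicate 1 for each gene. Filled points are the deposited TPM, bars the deposited credibility interval, and open diamonds the second quantification rescaled to the same protein-coding total. Cux2 leads in the deposited TPM and Tbr1 in the second quantification of replicate 2, and the Foxp2 points lie below their own bars.

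Of the upper layer factors, Cux2 had the highest level. Cux2 (ENSMUSG00000042589.18, chr5:121856366-122050102, minus strand) encodes a cut-homeodomain protein known to shape dendrites and spines of upper layer neurons. It stood at 82.5 TPM in replicate 2 and 96.7 TPM in replicate 1, or 89.6 ± 10.03 TPM (SD, n = 2). Its paralog Cux1 (ENSMUSG00000029705.17, chr5:136248135-136567490, minus strand) stood at 44.6 TPM in replicate 2 and 54.8 TPM in replicate 1, or 49.7 ± 7.23 TPM. The Cux2 level was 1.81-fold that of Cux1, a log2 ratio of 0.85 ± 0.05 within a library (mean ± SD, n = 2). Both genes were lower in replicate 2, and their ratio differed little between the libraries. Pou3f2 (ENSMUSG00000095139.2, chr4:22482780-22488366, minus strand) encodes BRN2, a POU-homeodomain factor of upper layer and layer 5 neurons, from a single exon. It was the least abundant of the upper layer factors, with 10.2 TPM in replicate 2 and 12.9 TPM in replicate 1, or 11.5 ± 1.90 TPM. On the same log2 scale it lay at -2.97 ± 0.08 relative to Cux2.

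Rorb (ENSMUSG00000036192.15, chr19:18930605-19111196, minus strand) encodes a nuclear receptor that takes part in forming the layer 4 barrels of the mouse. Its level was 19.8 TPM in replicate 2 and 25.02 TPM in replicate 1, or 22.4 ± 3.68 TPM. The log2 ratio of Cux2 to Rorb was 2.00 ± 0.08, a 4.01-fold higher level of Cux2. The deposited intervals of Rorb did not overlap between the libraries. This held for 4 of the 9 genes: Rorb, Cux1, Pou3f2 and Bcl11b. The lower interval was that of replicate 2 for all of them but Bcl11b. How often this occurs over all genes was not counted.

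The layer 5 factors stood at different levels. Fezf2 (ENSMUSG00000021743.6, chr14:12342094-12348189, minus strand), a zinc-finger factor that specifies neurons projecting below the cortex, was at 14.3 TPM in replicate 2 and 16.7 TPM in replicate 1, or 15.5 ± 1.67 TPM. Bcl11b (ENSMUSG00000048251.15, chr12:107910403-108003602, minus strand), the zinc-finger factor CTIP2, was at 32.5 TPM in replicate 2 and 27.8 TPM in replicate 1, or 30.2 ± 3.36 TPM. Bcl11b exceeded Fezf2 in both libraries, by 1.19 on the log2 scale in replicate 2 and 0.74 in replicate 1. Of 9 pairs compared within a library, this log2 ratio had the second widest spread, an SD of 0.32, after that of Rorb to Foxp2 with an SD of 0.40.

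Of the layer 6 factors, Tbr1 was the most abundant. Tbr1 (ENSMUSG00000035033.15, chr2:61802930-61814114, plus strand) encodes a T-box factor that represses Fezf2 in layer 6 neurons. It stood at 52.2 TPM in replicate 2 and 52.8 TPM in replicate 1, or 52.5 ± 0.40 TPM. Tle4 (ENSMUSG00000024642.17, chr19:14448150-14598051, minus strand), a corepressor of the Groucho family, stood at 20.0 TPM in replicate 2 and 18.7 TPM in replicate 1, or 19.4 ± 0.92 TPM. Foxp2 (ENSMUSG00000029563.16, chr6:14901349-15441977, plus strand), a forkhead factor known for its part in vocal learning, was at 6.55 TPM in replicate 2 and 5.56 TPM in replicate 1, or 6.06 ± 0.70 TPM. The log2 ratio of Tbr1 to Tle4 was 1.44 ± 0.08, and that of Tle4 to Foxp2 was 1.68 ± 0.10.

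The Foxp2 level carries a limit that the other members do not. Its deposited TPM lay below its own credibility interval in both libraries, which ran from 6.65 to 9.73 TPM in replicate 2 and from 6.25 to 10.5 TPM in replicate 1. The posterior mean TPM was 8.15 in replicate 2 and 8.25 in replicate 1, a difference in the other direction from the deposited TPM. For each of the other 8 genes the deposited TPM lay inside its interval in both libraries. Outside the set this also occurs: the TPM of Slc17a7 lay above its interval in both libraries. That interval ran from 539 to 551 TPM in replicate 2 and from 549 to 563 TPM in replicate 1. By either estimate Foxp2 was last in the order by mean.

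By mean TPM the order was Cux2, Tbr1, Cux1, Bcl11b, Rorb, Tle4, Fezf2, Pou3f2 and Foxp2. A pair was called different where in each library the whole deposited interval of one gene lay above that of the other, with the same gene on top. By this rule 31 of the 36 pairs were called. Of the 8 neighbours in the order, 3 were called: Cux2 above Tbr1, Cux1 above Bcl11b, and Fezf2 above Pou3f2. The other 5 neighbours did not differ by the rule: Tbr1 and Cux1, Bcl11b and Rorb, Rorb and Tle4, Tle4 and Fezf2, and Pou3f2 and Foxp2. Tbr1 and Cux1 changed places between the libraries, as did Rorb and Tle4, and the other 34 pairs kept their order.

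The top of this order depended on the quantification. The second transcript table, made from the same reads by another method, placed Tbr1 at 71.3 TPM in replicate 2 and 65.8 TPM in replicate 1 after rescaling to the same protein-coding total. Cux2 was there at 59.5 TPM in replicate 2 and 73.7 TPM in replicate 1. The log2 ratio of Cux2 to Tbr1 was 0.77 ± 0.15 in the gene table but -0.05 ± 0.30 in the second quantification. There it was -0.26 in replicate 2 and 0.16 in replicate 1, so the order was not the same in both libraries. Both genes moved: relative to the gene table, Tbr1 was 1.36-fold in replicate 2 and 1.25-fold in replicate 1, and Cux2 was 0.720-fold in replicate 2 and 0.762-fold in replicate 1. Within Tbr1 the higher value came with Tbr1-203, a processed transcript of 796 bases with no annotated coding sequence. It had 1.45 TPM in replicate 2 and 1.23 TPM in replicate 1 of the first transcript table, but an unscaled 51.5 TPM in replicate 2 and 33.8 TPM in replicate 1 of the second. In the second table it held 42.8% of the Tbr1 TPM in replicate 2 and 31.6% in replicate 1, on 365 and 180 estimated reads.

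Set together, Cux1, Cux2 and Pou3f2 summed to 137 TPM in replicate 2 and 164 TPM in replicate 1. The 5 deep layer factors Tbr1, Fezf2, Bcl11b, Tle4 and Foxp2 summed to 126 TPM in replicate 2 and 122 TPM in replicate 1. The ratio of upper to deep was 1.09 in replicate 2 and 1.35 in replicate 1, or 1.22 ± 0.18. Its side of 1 was not firm: the second quantification gave 0.779 in replicate 2 and 1.04 in replicate 1. Without Cux1, part of whose RNA encodes CASP, it was 0.738 in replicate 2 and 0.902 in replicate 1. Replicate 2 had the lower ratio under each of these settings.

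The libraries were then set against each other gene by gene, from rounded expected counts scaled with TMM factors. A gene was called higher or lower in replicate 2 where the 95% exact (Clopper-Pearson) interval of its log2 ratio excluded 0. With 1 library a side this describes the libraries and carries no p-value. Of the 9 genes, 4 were lower, 3 were higher and 2 were not called. Over the 17965 annotated genes whose mean count was at least 10, 16.8% were lower and 20.9% were higher by the same rule. Over the 6546 nuclear protein-coding genes with counts in the range of the 9, 15.5% were lower and 34% were higher, with a median log2 ratio of 0.06. The count of 3 higher was near that background, so it is no result about these genes. All 9 log2 ratios lay within 0.5 of 0, as did 99.1% of those protein-coding genes.

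The 4 lower genes were the upper layer and layer 4 factors. Cux1 had 4066 expected counts in replicate 2 against 3998 in replicate 1, from libraries of unequal depth, and a log2 ratio of -0.32 (95% interval -0.38 to -0.26). Of the protein-coding genes of the same count range, 2.57% had a ratio as low or lower. Pou3f2 had 1155 counts in replicate 2 against 1049 in replicate 1, a log2 ratio of -0.20 (-0.33 to -0.08). Rorb followed with 3512 counts in replicate 2 against 3157 in replicate 1, a ratio of -0.19 (-0.26 to -0.12). Cux2 had 5477 counts in replicate 2 against 4727 in replicate 1, a ratio of -0.13 (-0.19 to -0.07). The 4 differences were small, the largest being a level in replicate 2 of 0.801-fold that in replicate 1.

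None of the 5 deep layer factors was lower by the rule. Over the protein-coding genes of the same count range 15.5% were lower, so none of 5 is no result about these genes. Foxp2 had 621 counts in replicate 2 against 356 in replicate 1, a log2 ratio of 0.46 (0.27 to 0.65) or 1.37-fold. Bcl11b had 3944 counts in replicate 2 against 2376 in replicate 1, a ratio of 0.39 (0.31 to 0.46) or 1.31-fold, and 0.978% of the protein-coding genes of the same count range had a ratio as high or higher. Tle4 had 1803 counts in replicate 2 against 1192 in replicate 1, a ratio of 0.25 (0.15 to 0.36). Tbr1, with 3929 counts in replicate 2 and 2965 in replicate 1, had a ratio of 0.06 (-0.01 to 0.13), and Fezf2, with 634 counts in replicate 2 and 529 in replicate 1, had -0.08 (-0.25 to 0.09). Of the layer 6 and layer 5 factors, Foxp2, Tle4 and Bcl11b were thus called higher, and Tbr1 and Fezf2 were not called. On the scale of deposited TPM the ratios of the 9 genes lay lower except that of Cux1, at 0.23 for Bcl11b, 0.24 for Foxp2 and -0.22 for Fezf2. The direction of Foxp2 turned with the estimate of its level: the posterior mean was 8.15 TPM in replicate 2 against 8.25 TPM in replicate 1, and the rescaled second quantification 5.87 TPM in replicate 2 against 6.34 TPM in replicate 1.

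Most genes in the list of striatal projection neurons were higher in replicate 2, as were the scaled counts of Bcl11b, Foxp2 and Tle4. Of the 14 genes of that list 13 were higher in replicate 2 and none was lower, with a median log2 ratio of 1.11 and a summed level of 494 TPM in replicate 2 against 279 TPM in replicate 1. Drd2, the dopamine D2 receptor, had 541 counts in replicate 2 against 76 in replicate 1, a log2 ratio of 2.48. Ppp1r1b, the gene of the phosphatase inhibitor DARPP-32, was at 134 TPM in replicate 2 and 66.1 TPM in replicate 1. Drd1, the dopamine D1 receptor, was at 22.4 TPM in replicate 2 and 8.68 TPM in replicate 1. No gene of the list was at 0 in either library, and the lowest, Isl1, had 22 counts in replicate 2 and 14 in replicate 1. The part of striatal RNA in the values of Bcl11b, Foxp2 and Tle4 was not tested. Genes of oligodendrocytes also moved, with 8 of 9 higher and a median of 0.24. Their sum was 815 TPM in replicate 2 against 789 TPM in replicate 1, and their part was not tested either. Over the protein-coding genes of the same count range as the 9, 34% were higher. Spike-in scaling left 11 striatal and 4 oligodendrocyte genes higher.

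**Figure D2:**
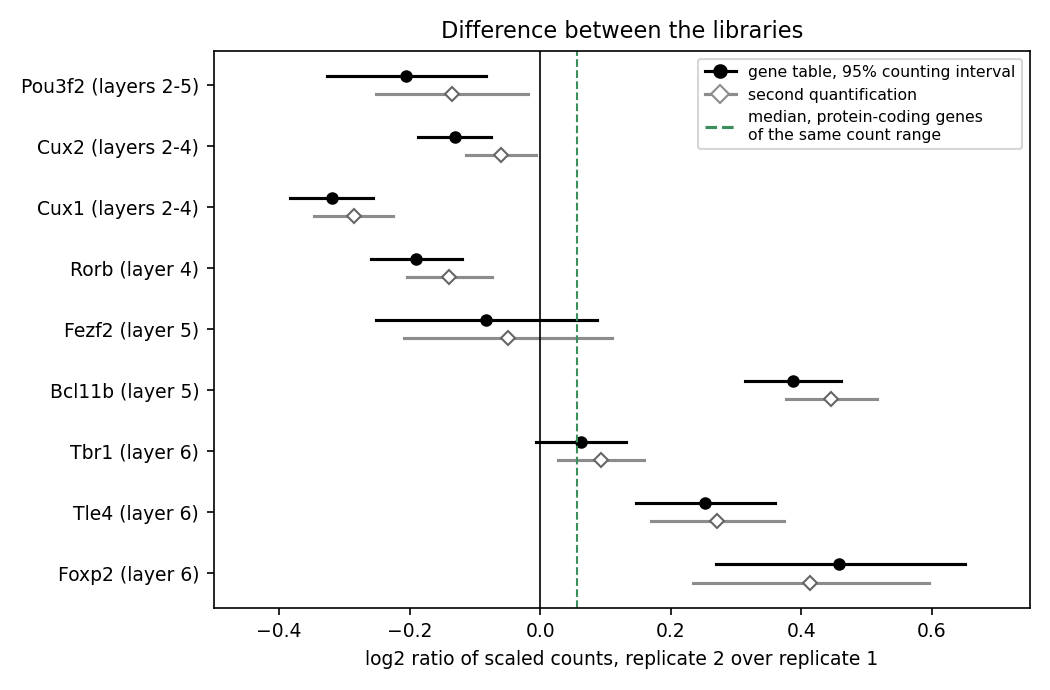
Log2 ratio of scaled counts in replicate 2 over replicate 1 for the 9 genes, ordered from upper to deep layers. Black points with 95% counting intervals are from the gene table, open diamonds from the second quantification, and the dashed line is the median of 0.06 over protein-coding genes of the same count range. The upper layer and layer 4 genes lie left of 0, and Bcl11b, Tle4 and Foxp2 lie right of it.

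In the second quantification 8 of the 9 calls were the same. The exception was Tbr1, whose ratio of 0.09 (0.03 to 0.16) was called higher there. Without the processed transcript Tbr1-203 the ratio of Tbr1 in that table was 0.05 (-0.02 to 0.11), which spans 0.

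The annotation lists 64 transcripts for the 9 genes. For 7 genes the same transcript led in both libraries and both tables, and Cux2 and Foxp2 were the exceptions. Tle4 was nearly a single form: Tle4-201 held 97.0% of its TPM in replicate 2 and 94.9% in replicate 1. Fezf2-201 held 75.6% in replicate 2 and 69.5% in replicate 1, and Fezf2-203, of the same 455 codons, held 23.7% in replicate 2 and 25.7% in replicate 1. Tbr1-201, which encodes 681 codons, held 91.2% in replicate 2 and 96.7% in replicate 1 in the first table, but 56.6% in replicate 2 and 67.3% in replicate 1 in the second. Pou3f2 has a single annotated transcript.

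Cux1 was a mixed gene, and by TPM the CASP end was its largest class in both libraries and both tables, at under 50% throughout. Transcripts that take the CASP end shown above (Cux1-205, Cux1-207 and Cux1-211) held 49.9% of Cux1 TPM in replicate 2 and 42.3% in replicate 1. Transcripts with the homeobox end (Cux1-201, Cux1-204, Cux1-206, Cux1-209 and Cux1-212) held 29.8% in replicate 2 and 35.3% in replicate 1. Cux1-208, a partial transcript with neither end, held 17.6% in replicate 2 and 15.3% in replicate 1, in replicate 1 more than the gap between the classes. Because Cux1-201 is 12862 bases long and Cux1-211 is 2831, the order by counts was the other way: the homeobox end took 64.6% of Cux1 counts in replicate 2 and 70.8% in replicate 1. The leading transcript Cux1-211 encodes 676 codons, and Cux1-201 encodes 1426.

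The lower scaled count of Cux1 in replicate 2 was in the homeobox end and the minor transcripts, and the CASP end was not called. The homeobox end had 2627 counts in replicate 2 against 2832 in replicate 1, a log2 ratio of -0.45 (-0.53 to -0.37). The 6 transcripts with neither end had 183 counts in replicate 2 against 226 in replicate 1, a ratio of -0.65 (-0.94 to -0.36). The CASP end had 1256 counts in replicate 2 against 940 in replicate 1, a ratio of 0.07 (-0.05 to 0.20). Of these, Cux1-211 had 1065 counts in replicate 2 against 940 in replicate 1, and Cux1-207 had 191 against 0. The deposited intervals of Cux1-207 overlapped between the libraries, so the ratio of the CASP end rests on how reads were divided among transcripts. There were 2.09 homeobox counts for each CASP count in replicate 2 and 3.01 in replicate 1, and the log2 difference of these class ratios was -0.53 (exact conditional interval -0.67 to -0.38). The second transcript table gave -0.50 (-0.65 to -0.36) for the same difference. All of these intervals leave out the error of dividing reads among transcripts.

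Rorb RNA was nearly all of the upstream start. Rorb-203, the RORβ1 form of 459 codons, held 90.4% of Rorb TPM in replicate 2 and 89.4% in replicate 1. The downstream-start transcripts held 9.59% in replicate 2 and 10.6% in replicate 1, on 101 counts in each library, or 2.87% of counts in replicate 2 and 3.19% in replicate 1. Rorb-201, the full RORβ2 form, was listed at 0 in both libraries of the first table. The second table disagreed between the libraries, with 30.05 downstream-start reads in replicate 2 and 214 in replicate 1, so the level of this start is uncertain.

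For the regions just upstream of the Rorb starts, 250 bases are shown with each CG in capitals, since the starts differed in use and in base composition. They are from RefSeq on GRCm38.p6, minus strand, at chr19:19111197-19111446 for the upstream start and chr19:19001118-19001367 for the downstream start.
Rorb upstream start: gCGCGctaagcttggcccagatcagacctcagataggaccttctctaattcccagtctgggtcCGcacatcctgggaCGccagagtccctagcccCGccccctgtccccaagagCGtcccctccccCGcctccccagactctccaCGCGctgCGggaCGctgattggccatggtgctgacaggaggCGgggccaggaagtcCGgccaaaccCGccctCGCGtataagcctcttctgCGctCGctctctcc
Rorb downstream start: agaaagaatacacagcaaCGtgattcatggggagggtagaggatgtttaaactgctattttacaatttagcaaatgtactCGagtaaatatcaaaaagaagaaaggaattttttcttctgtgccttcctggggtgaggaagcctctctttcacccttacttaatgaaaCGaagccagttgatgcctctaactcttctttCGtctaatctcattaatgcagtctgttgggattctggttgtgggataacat
The upstream window held 18 CG and was 66.0% G or C, and the downstream window held 4 CG and was 39.2% G or C. RefSeq windows were found for 8 of the 9 genes, 11 windows in all, and for Foxp2 none was matched. Their CG counts ranged from 3, at one Cux2 start, to 40 at the other, with a median of 18 against 6 over the 32851 windows of all genes. The motif TATAAA, searched on both strands, was in 1 of the 11 windows, at the Cux2 start with 3 CG, and in 12.4% of all windows. These matches are descriptions of letters and say nothing of what binds there.

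Bcl11b was made in a form with and a form without the exon shown above, in nearly the same shares in both libraries. Bcl11b-201, with the exon and 884 codons, held 58.8% of TPM in replicate 2 against 56.9% in replicate 1. Bcl11b-203, with 812 codons, held 41.2% in replicate 2 and 42.1% in replicate 1. By counts the form with the exon took 80.4% of Bcl11b in replicate 2 and 79.2% in replicate 1. Bcl11b-201 is 8111 bases long and Bcl11b-203 is 2888. The transcripts with the exon were higher in replicate 2 by 0.41 on the log2 scale (0.33 to 0.49) and those without it by 0.30 (0.14 to 0.47). The difference of the class ratios was 0.11 (exact conditional interval -0.08 to 0.29), which spans 0, so an unequal change was not detectable at this depth. The second table gave a share of 54.5% in replicate 2 and 54.1% in replicate 1 for Bcl11b-201.

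Foxp2 differed between the libraries in where its transcripts start. Of its 20 transcripts, 6 start upstream at chr6:14901349-14903457 and 6 at a second place, chr6:15184647-15185563. The second start had 350 counts in replicate 2 against 72.5 in replicate 1, a log2 ratio of 1.91 (1.55 to 2.30). The upstream start had 267 counts in replicate 2 against 276 in replicate 1, a ratio of -0.39 (-0.64 to -0.14). The gene's higher scaled count in replicate 2 was thus found at the second start, and the upstream start was lower there.

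The leading transcripts of the Foxp2 starts, Foxp2-201 and Foxp2-207, encode the same number of codons, 714. Foxp2-201 was at 2.84 TPM in replicate 2 (deposited interval 1.80 to 3.40) and 0.64 TPM in replicate 1 (0.000174 to 1.22). Foxp2-207 was at 1.76 TPM in replicate 2 (1.02 to 2.38) and 2.50 TPM in replicate 1 (1.60 to 2.85). The intervals of Foxp2-201 did not overlap between the libraries and those of Foxp2-207 did. The log2 difference of the class ratios, second over upstream start, was 2.31 (exact conditional interval 1.86 to 2.77). In the second table it was 1.37 (0.99 to 1.75), the same direction at a smaller size. These intervals count reads after they were divided among transcripts, and they leave out the error of that division. The striatal list, higher in replicate 2 as given above, moved in the same direction as the second start, and its part was not tested.

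**Figure D3:**
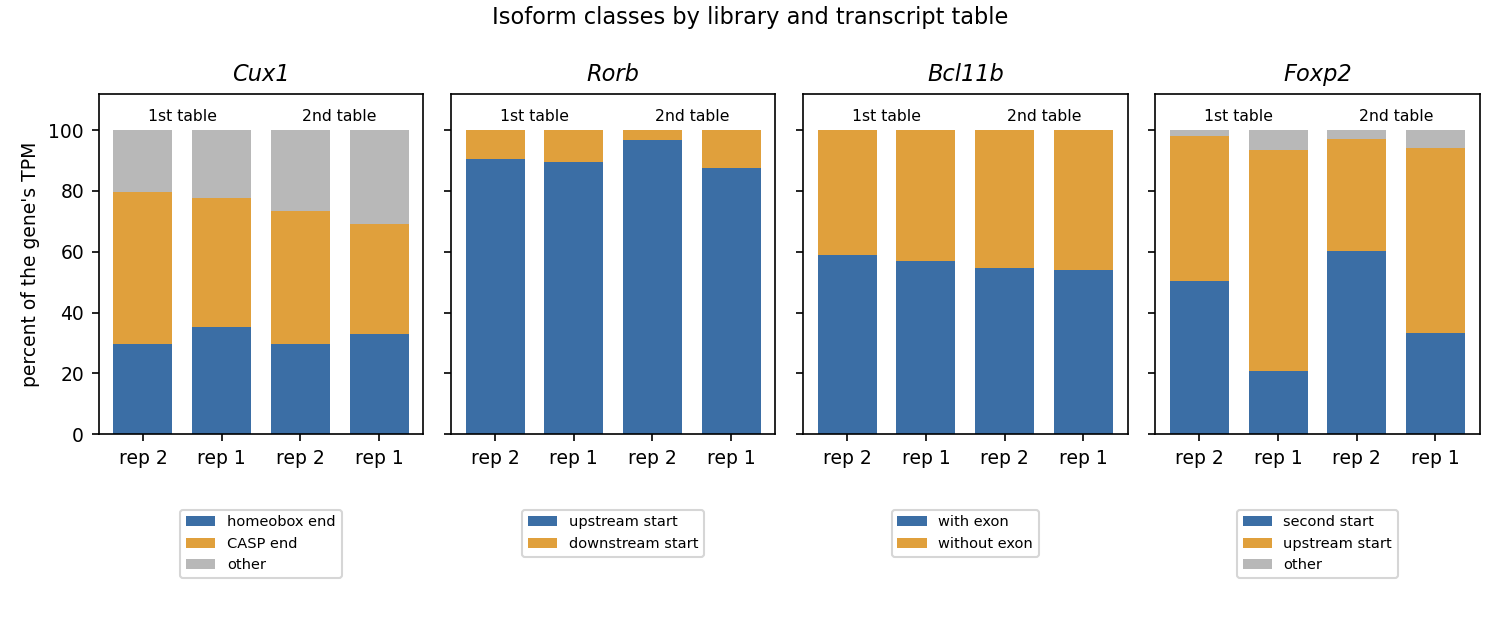
Shares of each gene's TPM by transcript class for Cux1, Rorb, Bcl11b and Foxp2, in percent, with replicate 2 left of replicate 1 in each of the transcript tables. Bcl11b shares are alike in all 4 bars, the CASP end of Cux1 is the larger class in all 4, and the second start of Foxp2 holds 50.4% in replicate 2 and 20.8% in replicate 1 of the first table.

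The forms of Cux2 could not be settled. In the first table Cux2-210 led with 23.5% of TPM in replicate 2 against 23.9% in replicate 1, while in the second table it held 0.955% in replicate 2 and 0.0334% in replicate 1. Cux2-201 led there with 35.9% in replicate 2 and 36.7% in replicate 1, against 2.57% in replicate 2 and 4.18% in replicate 1 of the first table. These transcripts and Cux2-202 each encode 1426 codons. Together the 3 held 44.9% of Cux2 TPM in replicate 2 and 46.7% in replicate 1, and 88.6% of counts in replicate 2 and 88.8% in replicate 1. The remaining TPM was in short partial or noncoding transcripts on few counts, such as Cux2-205 of 420 bases, on 117 counts in replicate 2 and 76.2 in replicate 1. The TPM of Cux2 as a gene therefore leans on short transcripts, and in the second quantification it was 0.720-fold in replicate 2 and 0.762-fold in replicate 1 of that in the gene table.

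Reads of overlapping genes could enter these values. The sources used here do not give the use of strand in counting, which bears on genes of the opposite strand. Within Cux1 and on its strand the annotation places Gm38082, with 45 counts in replicate 2 and 81 in replicate 1. A430110C17Rik, on the same strand, had 32 in replicate 2 and 56 in replicate 1. The use of strand does not bear on these genes. The antisense gene Gm16599 had 1 count in each library. The antisense genes at Cux2, Gm15637 and Gm3970, had 0 counts in both. Cux1 and Cux2 had 4066 and 5477 counts in replicate 2. The counts of the overlapping genes are reads assigned to those genes, so they cannot show how many entered Cux1 or Cux2.

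Paralogs set beside the members showed which family member was the more abundant in this tissue. Of 17 paralogs 12 were detected. Foxp2 was far below Foxp1, a forkhead factor also made in the upper layers and the striatum, at 58.3 TPM in replicate 2 and 61.8 TPM in replicate 1. Foxp4 was at 20.5 TPM in replicate 2 and 20.7 TPM in replicate 1, and Foxp3, the factor of regulatory T cells, was at 0.17 TPM in replicate 2 and 0.37 TPM in replicate 1. Bcl11a, the CTIP1 gene, which in deep layer neurons restrains the subcerebral fate that Bcl11b serves, was at 37.5 TPM in replicate 2 and 50.01 TPM in replicate 1. Bcl11a was above Bcl11b in both libraries. It was lower in replicate 2, with a log2 ratio of -0.30 (-0.38 to -0.22), while Bcl11b was higher.

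Among nuclear receptors of the ROR family, Rora was at 28.4 TPM in replicate 2 and 37.5 TPM in replicate 1, above Rorb. Of the POU genes, Pou3f3, the BRN1 gene that acts together with Pou3f2 in upper layer neurons, was at 24.8 TPM in replicate 2 and 28.9 TPM in replicate 1, above Pou3f2. Pou3f1 was at 7.46 TPM in replicate 2 and 6.89 TPM in replicate 1, and Pou3f4 at 2.78 TPM in replicate 2 and 2.02 TPM in replicate 1. Pou3f1 and Pou3f4 were higher in replicate 2, with log2 ratios of 0.25 and 0.59, while Pou3f2 and Pou3f3 were lower, with -0.20 and -0.08. Pou3f3 was not called in the second quantification. Of the 14 paralogs tested, 4 were higher and 6 lower with TMM, and 1 was higher with spike-in scaling. Over all annotated genes tested, 20.9% were higher and 16.8% lower with TMM. In the Groucho family, Aes, a short member that lacks the repeat domain of the others, reached 317 TPM in replicate 2 and 319 TPM in replicate 1. Tle3, Tle2 and Tle1 were between 17.8 and 33.9 TPM, and Tle6 was at 5.08 TPM in replicate 2 and 5.65 TPM in replicate 1. Tle2 had a log2 ratio of -0.44 (-0.59 to -0.28), opposite in direction to Tle4.

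The remaining T-box and Fezf paralogs were close to the limit of detection. Eomes, the TBR2 gene of intermediate progenitors in the embryo, had 3 counts in replicate 2 against 35 in replicate 1, a log2 ratio of -3.69 (-6.23 to -2.22). Tbx21 had 1 count in replicate 2 and 8 in replicate 1. Fezf1 had 1 count in each library. Tbr1 was thus the T-box gene of its group, and Fezf2 the Fezf gene, with a level above 1 TPM.

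**Figure D4:**
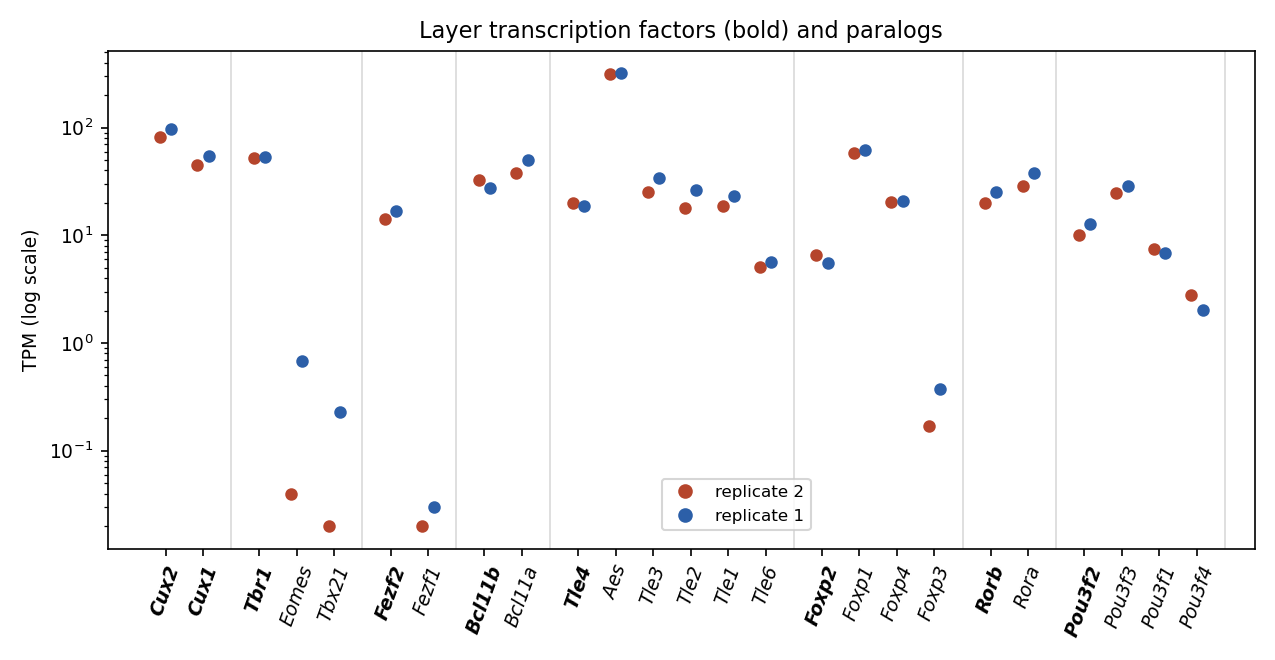
TPM on a log scale of the 9 genes (bold) and 16 of their paralogs by family, with replicate 2 left of replicate 1. Eomes, Tbx21 and Fezf1 lie far below Tbr1 and Fezf2. In both libraries Foxp1, Foxp4, Rora, Pou3f3, Bcl11a, Aes and Tle3 lie above the family member of the set.

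Of 17 partners and regulators of these factors, all were detected, and 5 were higher and 3 lower in replicate 2, with a median log2 ratio of 0.04 against 0.03 over all annotated genes tested; spike-in scaling gave 1 higher and 7 lower. The most abundant were Chd3, an ATPase of the NuRD complex that binds BCL11B, at 167 TPM in replicate 2 and 180 TPM in replicate 1, and Lmo4, a LIM-domain cofactor, at 120 TPM in replicate 2 and 130 TPM in replicate 1. Rbbp7, a histone-binding subunit, had the highest ratio of the list, 0.24, and Nfib, a nuclear factor I gene of deep layer neurons, the lowest, -0.16. All ratios of this list lay between those values.

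Of 8 genes known as targets of the factors, 7 were detected, with 2 higher, 3 lower and a median of 0.05, or 0 higher and 5 lower under spike-in scaling. Grin2b, an NMDA receptor subunit regulated by TBR1, was at 98.1 TPM in replicate 2 and 128 TPM in replicate 1, a log2 ratio of -0.25 (-0.27 to -0.22). Reln, the reelin gene and likewise a TBR1 target, was at 35.1 TPM in replicate 2 and 34.8 TPM in replicate 1, a ratio of 0.10 (0.05 to 0.16). Mef2c, a target of FOXP2, was at 237 TPM in replicate 2 and 254 TPM in replicate 1, a ratio of -0.04. Auts2, a further TBR1 target, was at 46.8 TPM in replicate 2 and 60.5 TPM in replicate 1, a ratio of -0.12 (-0.18 to -0.05). Of these TBR1 targets, Grin2b and Auts2 were lower and, with TMM but not with spike-in scaling, Reln was higher in replicate 2, while Tbr1 itself was not called.

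Other genes that mark the layers were counted in the same way, to be read against the 34% higher and 15.5% lower given above for protein-coding genes. Of 12 other upper layer and layer 4 genes, 4 were higher and 2 lower in replicate 2, near that background, with a median of -0.01. Calb1, a calcium-binding protein, was higher by 0.22 (0.13 to 0.30) and Inhba, an activin subunit, by 0.43 (0.29 to 0.58), whereas Otof, the otoferlin gene, had -0.19 (-0.31 to -0.07). Of 10 layer 5 genes tested, 2 were higher and 2 lower, with a median of 0.01. Pcp4, a calmodulin regulator, was higher by 0.29 (0.20 to 0.39), and Bcl6, a transcriptional repressor, had -0.19 (-0.33 to -0.05).

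Of 12 layer 6 and subplate genes 4 were higher and 1 lower, with a median of 0.13, again near the background. Under spike-in scaling the calls of this list turned to 0 higher and 3 lower, those of the upper layer list to 3 higher and 6 lower, and those of the layer 5 list to 1 higher and 4 lower. Crym, the crystallin mu gene, was at 37.4 TPM in replicate 2 and 34.0 TPM in replicate 1, and Rprm, the reprimo gene, at 35.9 TPM in replicate 2 and 33.9 TPM in replicate 1. They were higher by 0.24 (0.09 to 0.38) and 0.21 (0.07 to 0.36), calls that spike-in scaling ended. Nr4a2, an orphan nuclear receptor, was at 30.8 TPM in replicate 2 and 36.7 TPM in replicate 1, a ratio of -0.12 (-0.21 to -0.03). The thalamic list had 1 of 7 tested genes higher, none lower, and a sum of 35.5 TPM in replicate 2 and 40.1 TPM in replicate 1. Of the other cell type lists, inhibitory neuron genes had 5 of 10 higher and 1 lower, astrocyte genes 5 of 8 higher, microglia genes 3 of 7 higher and endothelial genes 3 of 6 higher and 1 lower, with medians between 0.11 and 0.16. Excitatory neuron genes had 2 of 9 higher and 3 lower, hippocampal genes 1 of 8 higher and 1 lower, and oligodendrocyte precursor genes 1 of 6 higher, with medians between -0.09 and -0.05. Spike-in scaling left 3 inhibitory neuron and 3 astrocyte genes higher, and 0 excitatory neuron, hippocampal and thalamic genes.

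**Figure D5:**
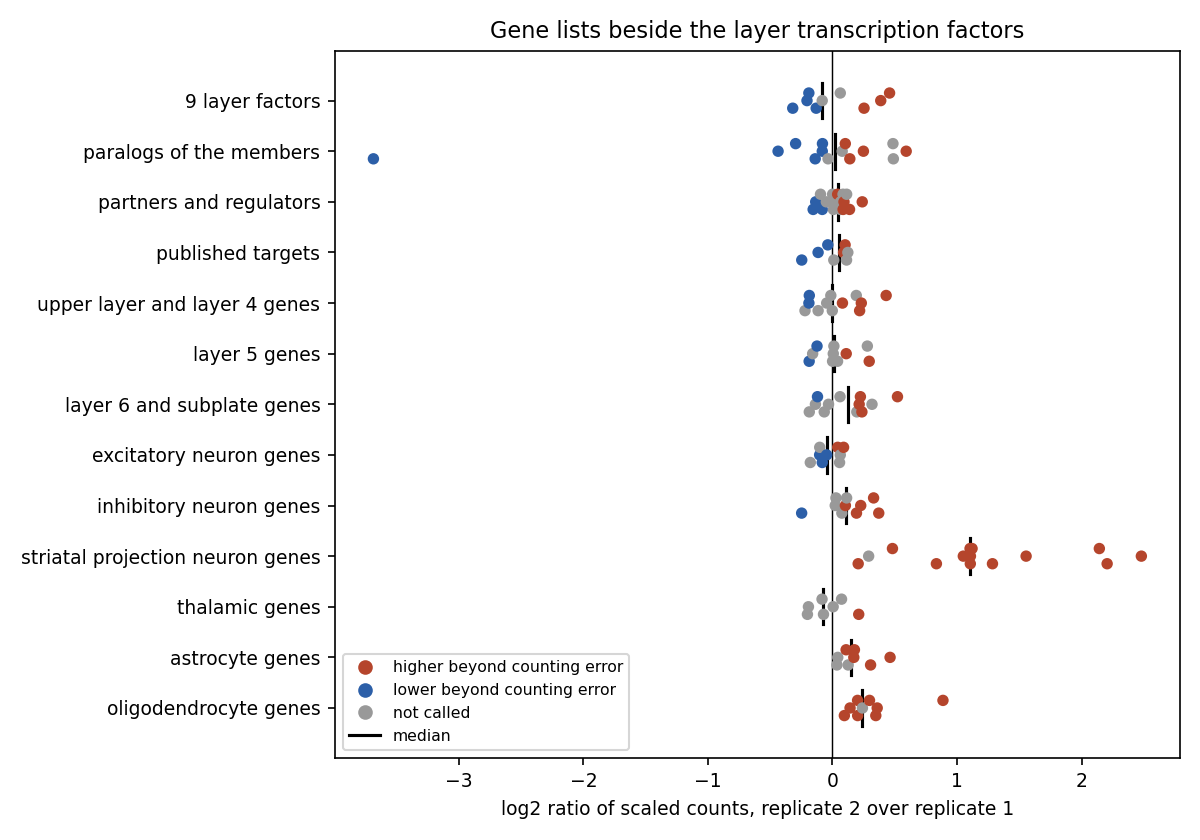
Log2 ratio of scaled counts in replicate 2 over replicate 1 for the tested genes of 13 lists, 1 point a gene, coloured by the call beyond counting error, with the median of each list as a black bar. The striatal list has a median of 1.11, the layer lists lie near 0, and the 9 layer factors fall on both sides of 0; Eomes is the point at -3.69.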

How the data were processed

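Total RNA from left cerebral cortex was sequenced in 2 libraries of 1 group. Per the deposited file lists, reads were set against mm10 with GENCODE M21. The sources used here do not name the aligner, the quantifier settings or the use of strand. Per the file headers, the columns of the gene table and of a first transcript table are those RSEM writes, and a second transcript table has those of kallisto. The deposited expected counts and estimated counts divide reads among transcripts and are not normalized. The deposited TPM and FPKM are scaled by length and library. The credibility bounds are a deposited signal on the TPM scale, of a level not given. The percent of a gene held by a transcript is a deposited column too. Reference sequence was used throughout, and CAST variants may have lowered counts by an amount that was not measured.

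Expected counts were rounded and scaled by TMM (edgeR 4.0.16, R 4.3.3; factors 0.984 for replicate 2 and 1.02 for replicate 1). Log2 ratios are replicate 2 over replicate 1 with 0.5 added to each count. Exact 95% intervals (scipy 1.17.1) cover no error but that of counting, and reads carried no molecular identifiers, so they are not independent molecules. Lists were matched by symbol, at a mean count of 10 or more for tests. The 9 genes, the 16 other lists and the pairs were chosen with earlier results of these data known. Genes named from a list were the 3 with the highest mean TPM or those with extreme ratios; all paralogs and striatal genes could be named, and Reln and Auts2 were chosen after their values were seen. Some list genes are counted but not reported here by name. Alternatives were DESeq2 1.42.0 size factors, total, spike-in and protein-coding scaling, other filters and pseudocounts, the posterior mean TPM, FPKM and the second quantification.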

Additional observations from a re-analysis of the deposited data

How the results depend on the processing

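The log2 ratios of the 9 genes between the libraries kept their call in 61 of 63 alternatives (scaling, pseudocount and quantification). The pseudocount alternative, 1 for each of the 9 genes, does not enter the exact interval, so it could not change a call. The exceptions were Tbr1, called higher at 0.09 in the second quantification, and Fezf2, called lower at -0.21 with spike-in scaling, which brought the median of all annotated genes to -0.10 from 0.03. The second quantification reversed the log2 ratio of Cux2 to Tbr1, to -0.0496. It also moved those of Cux2 to Cux1 to 0.53, Cux2 to Rorb to 1.74, Tbr1 to Fezf2 to 2.14, Tbr1 to Tle4 to 1.97, Tle4 to Foxp2 to 1.51 and Pou3f2 to Cux2 to -2.71. The posterior mean TPM moved Tle4 to Foxp2 to 1.19 and Rorb to Foxp2 to 1.39. The ratio of upper to deep factors was 0.908 in the second quantification, 1.72 without Bcl11b and Foxp2, and 0.820 without Cux1. Mean isoform shares in the second transcript table were 37.0% for Cux1-211, 0.494% for Cux2-210, 61.97% for Tbr1-201, 61.2% for Fezf2-201, 54.3% for Bcl11b-201, 18.6% for Foxp2-207, 92.0% for Rorb-203, 39.9% for the CASP end of Cux1, 7.96% for the downstream start of Rorb and 58.8% for the Cux2 transcripts of complete coding sequence. Over the 154 tested list genes, 62 were higher and 22 lower in replicate 2; spike-in scaling gave 30 higher and 48 lower, and the second quantification 77 higher and 11 lower. Apart from the spike-in scaling, whose offset shifts all ratios alike, the cause was not tested. Leaving out a library leaves 1 value and no ratio between the libraries, so those ratios have no such alternative. No paired analysis was possible because the libraries form a single group. Depth limits the low genes: Eomes, Tbx21 and Fezf1 rest on 35 counts or fewer.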
